A study of Homo sapiens with 6 samples.

Results

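KAP1, HP1 and HUSH silencing factors are the proteins through which KRAB zinc finger proteins turn genes and transposable elements into repressed chromatin. The set held 10 genes, taken by symbol from knowledge of the pathway: the corepressor TRIM28 (also called KAP1), the histone methyltransferase SETDB1 and its partner ATF7IP, the HP1 genes CBX1, CBX3 and CBX5, and MORC2, MORC3, MPHOSPH8 and PPHLN1, which belong to or act beside the HUSH complex. All 10 matched exactly 1 row each of the 56832 rows in the count tables, and all 10 passed the filter on low counts that left 17415 genes tested. A KRAB zinc finger protein binds DNA by sequence and recruits TRIM28, which brings SETDB1 to write the trimethyl mark on lysine 9 of histone H3 (H3K9me3). HP1 proteins bind that mark, and the HUSH complex (TASOR, MPHOSPH8 and PPHLN1) works with SETDB1 and MORC2 to silence retrotransposons and other sequences. Background statements on these proteins come from general knowledge and not from the data.

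Messenger RNA was compared between 3 libraries of cells kept overnight in 0.2 mM methylglyoxal (MGO, a reactive compound that cells form during glycolysis and that modifies histones; libraries numbered 1, 3 and 4) and 3 libraries of untreated cells (numbered 1, 2 and 4). All 6 came from GLO1-knockout HEK293T cells, a human embryonic kidney line lacking glyoxalase 1, the enzyme that begins MGO removal. No cells with intact GLO1 were analysed here, so each difference is one within the knockout. The labels do not say whether the libraries came from separate cultures or how many knockout clones were used, so the p-values rest on a spread that may be technical.

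Total counts ranged from 19195920 to 21544749 in MGO and from 41002134 to 45910040 in untreated libraries, so depth was split exactly as treatment was, and the part of depth in any result cannot be told apart from that of MGO beyond the thinned counts given at the end. Mitochondrial transcripts took 5.34% to 8.17% of counts in MGO and 4.20% to 5.42% in untreated libraries. GLO1 mRNA was detected in every library, at 134, 142 and 145 CPM in MGO libraries 1, 3 and 4 and at 51.0, 46.9 and 46.3 CPM in untreated libraries 1, 2 and 4, which does not check the knockout because counts over a whole gene need not show a small lesion. CPM here means counts scaled to a common library size by TMM, a correction for depth and composition that sets every level relative to the rest of its library. Of the embryonic kidney markers, SALL1 was detected in all libraries and PAX8 was near 0, while the epithelial keratin KRT8 was abundant (817 to 831 CPM in MGO, 512 to 535 CPM in untreated libraries). Of 5 epithelial markers 4 were called higher in MGO and 1 lower, beside 41.8% and 41.2% of all tested genes. The lower one was CDH1, at 4.95 ± 0.38 CPM in MGO and 10.3 ± 0.44 CPM in untreated libraries (SD, n = 3 each). Markers of other cell types, 7 genes of which 1 was tested, summed to 11.3 to 12.3 CPM in MGO and 22.4 to 23.6 CPM in untreated libraries, nearly all of it COL1A1, with COL1A2 at 0. The neurofilament genes NEFL, NEFM and INA, which HEK293 cells are known to express, were lower in 3 of 3 cases (summed CPM 96.0 to 101 in MGO, 236 to 237 in untreated libraries). The part of these marker differences in the results was not tested.

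Of the 10 silencing factors, 5 rose and 5 fell with MGO, and none failed the test (edgeR quasi-likelihood test, adjusted p under 0.05 over all tested genes). Over all tested genes 83.1% were called, 41.8% higher and 41.2% lower in MGO, so a set in which every gene is called is near the background. In all 10 genes the MGO and untreated libraries did not overlap, as was so for 83.5% of tested genes. The median log2 fold change was 0.01 over the 10 and 0.01 over all tested genes. By role, SETDB1 and ATF7IP were about 2-fold higher, all 3 HP1 genes were lower, and the HUSH genes went both ways. In bulk RNA, a change in the number of cells that make a transcript and a change in RNA per cell cannot be told apart.

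**Figure D1:**
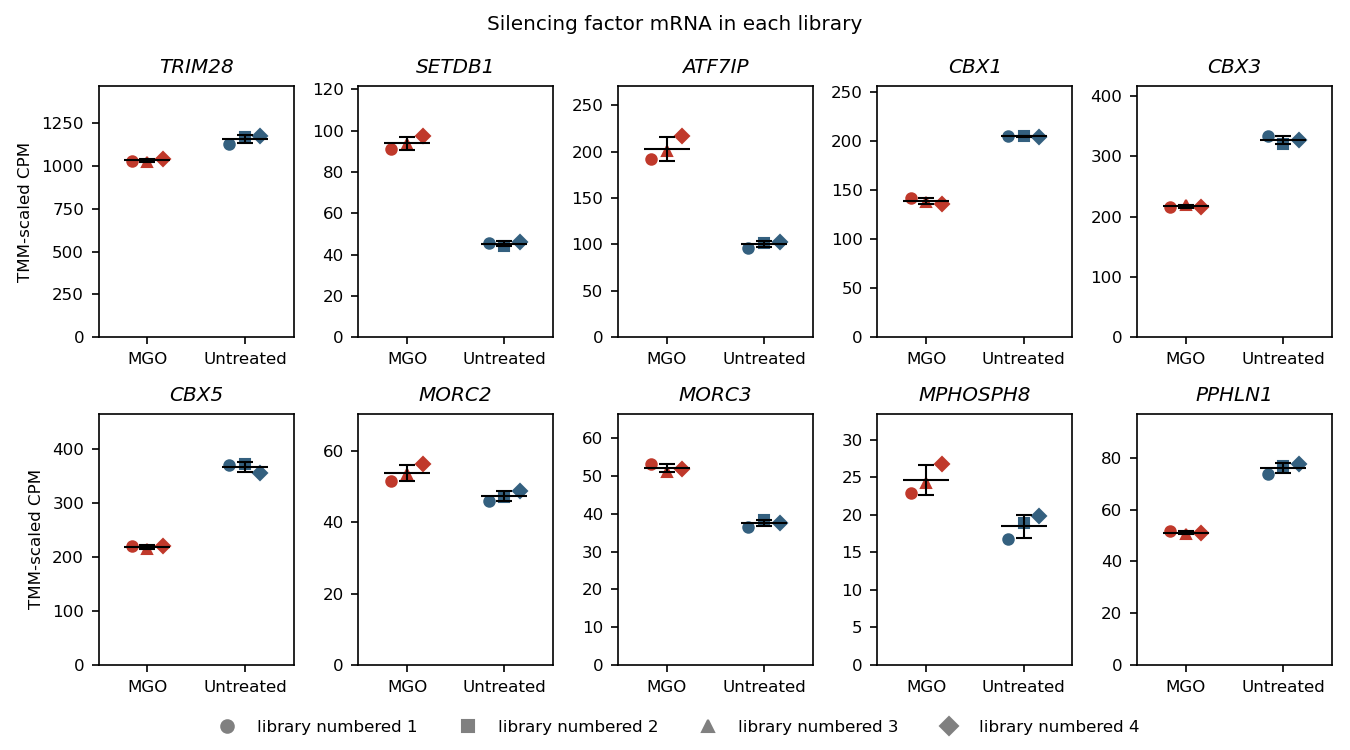
TMM-scaled CPM of each of the 10 genes (vertical axis, from 0) in the 3 MGO libraries (red, left) and the 3 untreated libraries (blue, right), with the mean and SD as a black bar and the library number as the marker. SETDB1 and ATF7IP stand about 2-fold higher in MGO, the HP1 genes and PPHLN1 lower, and TRIM28 and MORC2 differ least.

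TRIM28 is the scaffold of the pathway, linking the KRAB domain to SETDB1 and HP1. It lies on chromosome 19, 58544091 to 58550722, plus strand (ENSG00000130726.11, GENCODE 29 on GRCh38, the assembly of hg38). TRIM28 stood at 1033, 1027 and 1042 CPM in MGO libraries 1, 3 and 4, and at 1131, 1174 and 1175 CPM in untreated libraries 1, 2 and 4. The MGO libraries were all lower, by a narrow margin (log2 fold change -0.17, SE 0.032, adjusted p = 2.72e-05). Its mRNA stayed among the most abundant measured, above 99.5% of tested genes by CPM in MGO and above 99.7% in untreated libraries. Under other scalings and filters the log2 fold change ran from -0.35 to -0.10.

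The genes whose profile over the 6 libraries lay closest to that of TRIM28, by root mean square difference of centred log2 CPM among 10651 genes averaging at least 5 CPM, were COPB1, HNRNPA2B1, FH, HMOX1 and DIRC2, with differences of 0.014 to 0.017. HNRNPA2B1, an RNA-binding protein whose gene is the head-to-head neighbour of CBX3, is described with the HP1 genes. The closeness is over 6 libraries in 2 groups.

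SETDB1 and its stabilising partner ATF7IP rose together. SETDB1, the methyltransferase that writes H3K9me3 after recruitment by TRIM28 or HUSH (chromosome 1, 150926263 to 150964744, plus strand, ENSG00000143379.12), stood at 91.1, 93.4 and 97.3 CPM in MGO libraries 1, 3 and 4, against 45.4, 43.9 and 46.3 CPM in untreated libraries 1, 2 and 4. Every MGO library was about 2-fold above every untreated library. The log2 fold change was 1.06 (SE 0.042, adjusted p = 1.05e-20), larger than that of 81.1% of tested genes. ATF7IP, which binds SETDB1 and keeps it in the nucleus and stable (chromosome 12, 14365632 to 14502935, plus strand, ENSG00000171681.12), had 191, 200 and 216 CPM in MGO libraries 1, 3 and 4, against 96.3, 101 and 103 CPM in untreated libraries 1, 2 and 4. Its log2 fold change was 1.02 (SE 0.043, adjusted p = 6.74e-20), with no overlap between the groups. These 2 were the members that rose at least 2-fold, as 19.8% of tested genes did. Against a fold of 1.5, SETDB1 and ATF7IP passed as higher (25.1% of tested genes did) and CBX5 as lower (22.6%), which made 3 members beside 47.7% of tested genes. In raw counts, before depth was taken into account, SETDB1 stood at 0.880 times and ATF7IP at 0.858 times the untreated mean, while the whole MGO library held 0.455 times the untreated counts.

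Whether the partners shifted against each other was read from their count ratio within each library, which needs no scaling. The log2 ratio of ATF7IP to SETDB1 was 1.11 ± 0.041 in MGO and 1.15 ± 0.060 in untreated libraries (mean ± SD, n = 3 each), with overlapping groups and a difference of -0.039 (two-sided exact permutation p = 0.5). The log2 ratio of SETDB1 to TRIM28 was -3.46 ± 0.042 in MGO and -4.68 ± 0.052 in untreated libraries (n = 3 each), a difference of 1.22, or 2.33-fold (exact permutation p = 0.1). With 3 libraries against 3 the smallest p that this test allows is 0.1, and over the 8 ratios computed it becomes 0.133 after Benjamini-Hochberg adjustment, so no ratio could pass a threshold of 0.05. The ratio within the methyltransferase pair differed by less than the spread between libraries, and SETDB1 stood higher against TRIM28 in 3 of 3 MGO libraries.

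**Figure D2:**
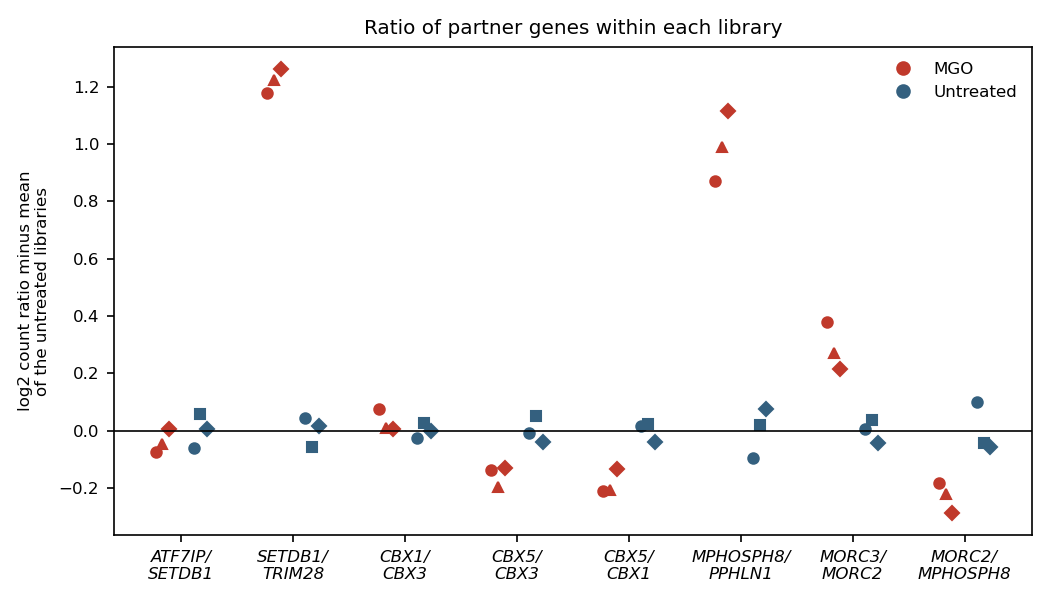
Log2 ratio of the counts of 2 partner genes in each library, minus the mean of the untreated libraries for that ratio (vertical axis); MGO libraries are red and left of the untreated libraries in blue, with the same marker for each library number as in the plot of levels. SETDB1 over TRIM28 and MPHOSPH8 over PPHLN1 lie about 1 log2 unit higher in MGO, while ATF7IP over SETDB1 and CBX1 over CBX3 overlap.

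The HP1 genes fell together. HP1 proteins carry a chromodomain that binds methylated lysine 9 of histone H3 and a chromoshadow domain that binds partners, TRIM28 among them. CBX5 (HP1 alpha; chromosome 12, 54230940 to 54280133, minus strand, ENSG00000094916.15) had 219, 214 and 220 CPM in MGO libraries 1, 3 and 4, against 370, 371 and 355 CPM in untreated libraries 1, 2 and 4. It was 1.68-fold lower in MGO (log2 fold change -0.75, SE 0.036, adjusted p = 1.60e-18). CBX3 (HP1 gamma; chromosome 7, 26201162 to 26213356, plus strand, ENSG00000122565.18) had 216, 220 and 216 CPM in MGO, against 333, 321 and 327 CPM in untreated libraries, in the same order. Its fall was 1.51-fold (log2 fold change -0.59, SE 0.036, adjusted p = 4.88e-16). CBX1 (HP1 beta; chromosome 17, 48070052 to 48101521, minus strand, ENSG00000108468.14) had 142, 138 and 136 CPM in MGO, against 205, 205 and 205 CPM in untreated libraries. CBX1 was 1.48-fold lower (log2 fold change -0.56, SE 0.038, adjusted p = 7.40e-15). In each of the 3 genes the 2 groups were well apart and the libraries within a group close together. The 3 genes resemble each other in sequence and genes of this family have processed copies elsewhere in the genome, and the treatment of reads with several matches is unknown here, so their separate values are uncertain to that extent.

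CBX5 stood slightly lower against its relatives in MGO. The log2 ratio of CBX5 to CBX3 was 0.022, -0.039 and 0.029 in MGO libraries 1, 3 and 4, against 0.15, 0.21 and 0.12 in untreated libraries 1, 2 and 4, a difference of -0.16 with no overlap. The log2 ratio of CBX5 to CBX1 differed by -0.19, also with no overlap (exact permutation p = 0.1 for both, n = 3 each, adjusted 0.133). For CBX1 to CBX3 the groups overlapped, with a difference of 0.03 (exact permutation p = 0.4, n = 3 each). Levels of different genes can be compared only per length. Dividing counts by the length of all annotated exons, CBX3 gave 44.1% ± 0.588, CBX1 42.3% ± 0.629 and CBX5 13.6% ± 0.287 of the HP1 sum in MGO libraries (SD, n = 3). In untreated libraries CBX3 gave 43.7% ± 0.492, CBX1 41.2% ± 0.337 and CBX5 15.1% ± 0.345 (SD, n = 3). The low share of CBX5 rests on its long annotated exons, 15040 bases against 4641 for CBX3 and 3087 for CBX1, and the order depends on that length. Of undivided counts, CBX5 had the largest share in untreated libraries and nearly the same share as CBX3 in MGO. In MGO library 3 CBX3 had more counts (4089) than CBX5 (3979).

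CBX3 and CBX5 each start beside a gene of an RNA-binding protein on the other strand. HNRNPA2B1, whose annotated start lies 367 bases from that of CBX3 with 368 bases of overlap, had 1631 ± 15.7 CPM in MGO and 1842 ± 64.3 CPM in untreated libraries (SD, n = 3 each; log2 fold change -0.18, adjusted p = 1.30e-05). HNRNPA1, which starts 60 bases from CBX5 without overlap, had 1543 ± 17.3 CPM in MGO and 2071 ± 21.5 CPM in untreated libraries (log2 fold change -0.42, adjusted p = 7.44e-14). Both neighbours fell, and both by less than the HP1 gene beside them. Whether the difference between neighbours passes a test was not computed.

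The sequences before RefSeq starts of 4 members are shown because these genes carry the opposite directions: SETDB1 and ATF7IP rose, CBX3 and CBX5 fell. They are the 250 bases before the RefSeq start nearest the GENCODE start of the gene, 5′ to 3′ on the gene's strand (GRCh38.p14, RefSeq), with capitals marking matches on either strand to the NRF1 motif (the letters GCGCA and GCGC around any 1 base; NRF1 is an activator of many housekeeping promoters), CGCATGCG (which can overlap it), CACGTG (the E-box) and CCAAT.
SETDB1, chr1:150926013-150926262, plus strand: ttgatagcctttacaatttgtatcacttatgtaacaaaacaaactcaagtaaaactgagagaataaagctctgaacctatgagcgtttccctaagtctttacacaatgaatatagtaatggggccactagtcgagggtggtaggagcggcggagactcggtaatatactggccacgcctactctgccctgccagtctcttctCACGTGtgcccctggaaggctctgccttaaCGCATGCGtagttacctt
ATF7IP, chr12:14365432-14365681, plus strand: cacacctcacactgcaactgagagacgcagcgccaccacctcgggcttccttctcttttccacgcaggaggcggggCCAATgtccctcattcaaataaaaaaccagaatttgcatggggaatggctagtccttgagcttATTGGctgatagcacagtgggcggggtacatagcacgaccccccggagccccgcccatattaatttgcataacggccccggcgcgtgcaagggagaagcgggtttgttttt
CBX3, chr7:26201193-26201442, plus strand: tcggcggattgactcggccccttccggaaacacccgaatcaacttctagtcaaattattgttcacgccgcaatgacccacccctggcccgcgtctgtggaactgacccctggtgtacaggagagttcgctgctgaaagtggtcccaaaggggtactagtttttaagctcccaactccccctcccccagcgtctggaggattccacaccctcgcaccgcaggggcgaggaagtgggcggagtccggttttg
CBX5, chr12:54280123-54280372, minus strand: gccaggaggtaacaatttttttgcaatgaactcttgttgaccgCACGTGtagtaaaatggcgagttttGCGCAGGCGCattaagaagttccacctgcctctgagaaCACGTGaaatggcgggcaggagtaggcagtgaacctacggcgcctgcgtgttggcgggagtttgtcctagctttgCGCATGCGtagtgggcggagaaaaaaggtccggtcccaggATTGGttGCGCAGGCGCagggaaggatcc

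Entries were found for 9 of the 10 members. The RefSeq start used lies 0 bases from the GENCODE start for SETDB1, 11 for CBX5, 50 for ATF7IP and 281 for CBX3. For CBX1 the distance is 335 bases and for MORC2 476 bases. The windows of CBX3, CBX1 and PPHLN1 lie wholly inside the gene as GENCODE places it. The NRF1 motif was in 2 of 9 members (CBX5 and MORC3) and 5.07% of all 35116 RefSeq windows of this length. The shorter palindrome CGCATGCG was in 3 of 9 (SETDB1, CBX5 and MORC3) and 1.73% of windows. The E-box was in SETDB1 and CBX5 and in 6.34% of windows, so a gene that rose and one that fell shared both the palindrome and the E-box. The CCAAT box was in 5 of 9 members and 32.0% of windows, among them ATF7IP with 2 matches and CBX5 with 1. CBX3 held none of the marked letters.

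Other motifs were searched on both strands and are not marked. The SP1 box GGGCGG was in 6 of 9 members and 42.6% of windows. The ETS motif CCGGAAGT was in MORC3 and PPHLN1 and in 3.42% of windows; the window of PPHLN1 belongs to a RefSeq start 87720 bases from the GENCODE start of that gene. The cyclic AMP response element TGACGTCA was in none of the 9 members and 1.65% of windows, and TGATGNAA, part of the ATF4 motif, in none and 3.14%. A match describes letters in the window and is no evidence of binding. The GC content of the windows was 46.0% for SETDB1, 55.6% for ATF7IP, 58.8% for CBX3 and 54.8% for CBX5, beside a median of 58.0% over all windows.

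The HUSH genes split. MPHOSPH8, the chromodomain subunit that reads H3K9me3 (chromosome 13, 19633681 to 19673459, plus strand, ENSG00000196199.13), had 22.8, 24.3 and 26.7 CPM in MGO libraries 1, 3 and 4, against 16.7, 18.8 and 19.8 CPM in untreated libraries 1, 2 and 4. It had the fewest counts of the members, 413, 452 and 563 in MGO, and was 1.34-fold higher there (log2 fold change 0.42, SE 0.069, adjusted p = 2.28e-06). PPHLN1, periphilin (chromosome 12, 42238447 to 42459715, plus strand, ENSG00000134283.17), went the other way, with 51.6, 50.6 and 51.1 CPM in MGO, against 73.9, 77.0 and 77.6 CPM in untreated libraries. Its log2 fold change was -0.58 (SE 0.042, adjusted p = 8.59e-14). TASOR, the third subunit, is listed under its older symbol FAM208A and was higher in MGO, at 138 ± 7.75 CPM, against 109 ± 3.37 CPM in untreated libraries (SD, n = 3 each; log2 fold change 0.34, adjusted p = 7.04e-09). The log2 ratio of MPHOSPH8 to PPHLN1 was -1.06 ± 0.12 in MGO and -2.05 ± 0.088 in untreated libraries, a difference of 0.99 with no overlap (n = 3 each, exact permutation p = 0.1, adjusted 0.133). MPHOSPH8 stood higher against PPHLN1 in each MGO library than in any untreated one.

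The MORC ATPases both rose, by different amounts. MORC3, which reads H3K4me3 through its CW domain and is linked to SUMO (chromosome 21, 36320189 to 36386148, plus strand, ENSG00000159256.12), had 53.2, 51.1 and 51.8 CPM in MGO libraries 1, 3 and 4, against 36.6, 38.3 and 37.6 CPM in untreated libraries 1, 2 and 4. The log2 fold change was 0.47 (SE 0.046, adjusted p = 6.15e-11). MORC2, which HUSH recruits to compact chromatin (chromosome 22, 30925130 to 30968298, minus strand, ENSG00000133422.12), had 51.6, 53.5 and 56.3 CPM in MGO, against 46.0, 47.0 and 48.8 CPM in untreated libraries. Its groups lay close together without overlap (log2 fold change 0.19, SE 0.046, adjusted p = 0.000447). That call did not hold with library size as the only scaling (log2 fold change 0.083, adjusted p = 0.134) or with no filter on low counts (0.0060, adjusted p = 0.928), and without MGO library 4 the log2 fold change was 0.12 (adjusted p = 0.0308). The log2 ratio of MORC3 to MORC2, which no scaling touches, was -0.047 ± 0.084 in MGO and -0.33 ± 0.040 in untreated libraries, and that of MORC2 to MPHOSPH8 was 1.13 ± 0.052 in MGO and 1.36 ± 0.087 in untreated libraries (n = 3 each, no overlap, exact permutation p = 0.1 for both).

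Within MGO, libraries 1, 3 and 4 stood in rising order for SETDB1, ATF7IP, MORC2 and MPHOSPH8, and their mitochondrial shares, 8.17%, 6.00% and 5.34%, in falling order. The part of that share in these results was not tested. With both libraries numbered 1 left out, the log2 fold changes were 1.07 for SETDB1, 1.02 for ATF7IP, 0.19 for MORC2 and 0.39 for MPHOSPH8.

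**Figure D3:**
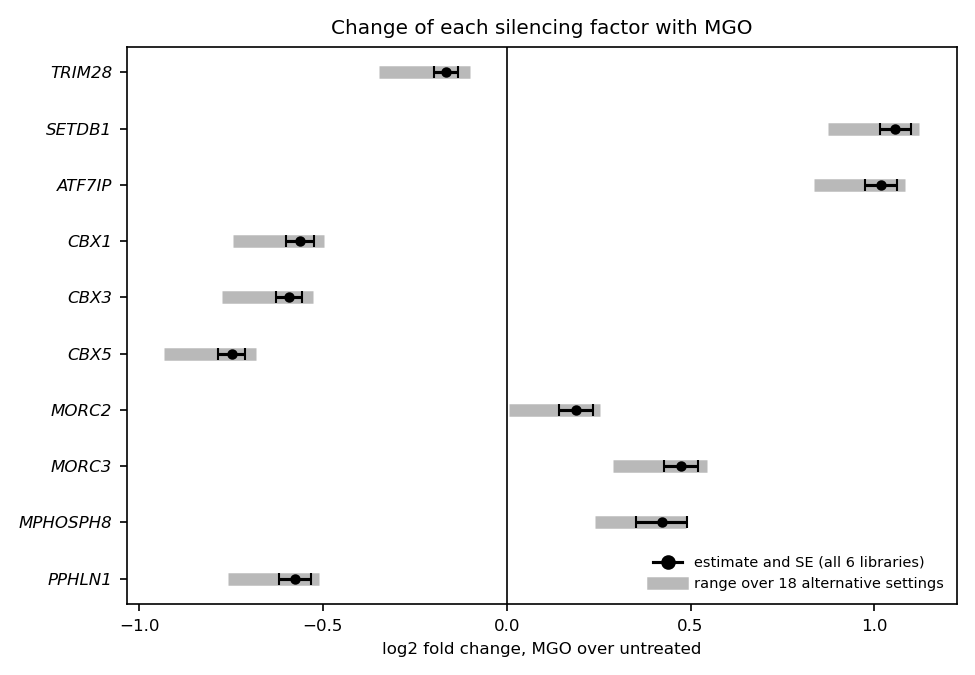
Log2 fold change of each gene in MGO over untreated cells (horizontal axis), as the estimate with its SE (black) and the range over 18 alternative settings (grey). The range of MORC2 reaches 0.0060, and the other 9 genes keep clear of 0 on their own side.

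Per kilobase of annotated exon, the order of mRNA levels among the members was led by TRIM28 in both groups, at 256 ± 1.84 CPM per kb in MGO and 288 ± 6.22 CPM per kb in untreated libraries (SD, n = 3 each). CBX3 (46.8 in MGO, 70.5 in untreated) and CBX1 (44.9 in MGO, 66.4 in untreated) followed. In MGO the order went on with ATF7IP at 15.4, CBX5 at 14.5, SETDB1 at 13.2, MORC2 at 8.60, MORC3 at 8.12, MPHOSPH8 at 5.02 and PPHLN1 at 4.20 CPM per kb. There the neighbours ATF7IP and CBX5, and MORC2 and MORC3, overlapped between libraries. In untreated libraries it went on with CBX5 at 24.3, ATF7IP at 7.60, MORC2 at 7.55, SETDB1 at 6.37, PPHLN1 at 6.27, MORC3 at 5.85 and MPHOSPH8 at 3.76 CPM per kb. There ATF7IP overlapped with MORC2 and SETDB1 with PPHLN1. These orders rest on the length used. With the longest annotated transcript as length, chosen after seeing the data, PPHLN1 in MGO stood at 8.55 CPM per kb, above MPHOSPH8 at 5.81, MORC3 stood above MORC2, and SETDB1 at 21.2 stood above CBX5 at 18.9 CPM per kb.

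Several members share ground with other genes, and the use of strand in counting is unknown here, so reads in shared stretches cannot be assigned. SETDB1 overlaps the ceramide synthase gene CERS2 on the other strand over 4162 bases, and CERS2 had 202 ± 4.54 CPM in MGO and 169 ± 1.87 CPM in untreated libraries (SD, n = 3 each; log2 fold change 0.26). The gene ZCRB1 lies wholly within PPHLN1 on the other strand and was lower in MGO (log2 fold change -0.52). PRICKLE1, at the far end of PPHLN1, was lower too (-0.78). YAF2, which starts 98 bases from the annotated start of PPHLN1, was higher (0.64). ZCRB1 starts 87671 bases from that annotated start, close to the RefSeq start of PPHLN1 used for its window, 87720 bases from it. CHAF1B, a subunit of the histone chaperone CAF-1, overlaps the end of MORC3 over 771 bases on the same strand (log2 fold change -0.15). TUG1, a long non-coding RNA that starts 947 bases from MORC2 (0.48), and SNX11, 1836 bases from CBX1 (0.51), were higher. All 7 of these genes were called, beside 83.1% of all tested genes. Neighbouring genes therefore moved with their member in some places (CERS2, ZCRB1, PRICKLE1, TUG1) and against it in others (YAF2, CHAF1B, SNX11).

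Counts of calls in the related lists that follow stand beside 83.1% of all tested genes called, 41.8% higher and 41.2% lower. All 3 paralogs of TRIM28 rose. TRIM33 had 100 ± 4.50 CPM in MGO and 77.5 ± 3.32 CPM in untreated libraries. The low TRIM66 had 3.95 ± 0.173 CPM in MGO and 2.60 ± 0.161 CPM in untreated libraries. TRIM24 rose by a log2 fold change of only 0.11. The call on TRIM24 was lost under 8 of 18 alternatives, with its sign turned by dropping the filter on low counts. Of 5 further HUSH, MORC and ATF7IP genes tested, TASOR2, a paralog of TASOR listed as FAM208B, rose 2.21-fold (234 ± 16.1 CPM in MGO, 106 ± 4.79 CPM in untreated), TASOR rose as given above, and RESF1, a partner of SETDB1 listed as KIAA1551, fell by a log2 fold change of -0.16 (adjusted p = 0.0373), a call lost under 12 of 18 alternatives. MORC4 (log2 fold change 0.07, adjusted p = 0.0747) and ATF7IP2 (0.04, adjusted p = 0.706) did not pass, and MORC1 had 0 counts. MORC4 was called higher under 5 alternatives (RLE, upper quartile, at least 1 CPM in every library, DESeq2 and thinned counts) and lower with no filter on low counts.

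Of 5 other methyltransferase genes 4 rose and 1 fell, with a median log2 fold change of 0.14. In 2 of the rises, SUV39H1 (edgeR adjusted p = 0.0497) and EHMT2 (adjusted p = 0.0301), the MGO and untreated libraries overlapped. The call on EHMT2 was lost under 10 of 18 alternatives. With limma voom, and without MGO library 4, only 3 genes of this list rose, although EHMT2 kept its call. SUV39H2, which writes H3K9me3 at pericentromeric repeats, rose (64.4 ± 1.70 CPM in MGO, 40.3 ± 0.510 CPM in untreated), as did SETDB2 (0.72), while EHMT1, the GLP subunit of the H3K9me2 enzyme, fell (51.9 ± 2.23 CPM in MGO, 93.1 ± 1.80 CPM in untreated). EHMT2, the G9a subunit, rose by only 0.11, with its sign turned by scaling to library size alone and by dropping the filter on low counts, and 2 in place of 4 genes of this list rose under 8 alternatives, among them leaving out MGO library 3 and each of the untreated libraries in turn. Among 9 demethylase genes, 7 were higher, 1 was lower and 1 was not called, with a median log2 fold change of 0.50. In this list JMJD1C (79.2 ± 3.97 CPM in MGO, 24.0 ± 1.32 CPM in untreated), KDM7A (1.28) and KDM3A (1.20) were higher and KDM4B (26.3 ± 0.866 CPM in MGO, 63.1 ± 1.31 CPM in untreated) was lower. JMJD1C has weak or disputed demethylase activity.

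HP1 partners and the SUMO pathway, which modifies TRIM28 so that it can hold SETDB1, went in both directions. Among 11 HP1 partners, 7 were higher, 3 were lower and 1 was not called, with a median log2 fold change of 0.34. The 4 with the smallest p were rises of ADNP2 (337 ± 19.5 CPM in MGO, 118 ± 1.22 CPM in untreated), of the histone H3.3 chaperone DAXX (log2 fold change 1.34) and its remodeller ATRX (1.24), and of POGZ (0.92), a zinc finger protein that binds HP1. Of 16 SUMO pathway genes 9 rose and 7 fell (median log2 fold change 0.14). The modifier SUMO2 fell (318 ± 5.81 CPM in MGO, 538 ± 13.0 CPM in untreated), as did the ligase PIAS4 (-1.07), while the SUMO proteases SENP1 (0.98) and SENP6 (0.81) rose.

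Zinc finger rows and rows of endogenous retrovirus genes were counted too. Zinc finger genes named ZNF and a number, many of which carry the KRAB domain that recruits TRIM28, rose in 323 of 430 tested cases (75.1%) and fell in 65 (15.1%), with a median log2 fold change of 0.79, beside 41.8% higher, 41.2% lower and a median of 0.01 over all tested genes. Of 7 rows of endogenous retrovirus genes, a class of sequence that the pathway is known to silence, 5 were tested, 4 rose and 1 fell, all at low levels. ERVW-1, which encodes syncytin-1, had 21, 21 and 15 counts in MGO libraries 1, 3 and 4, against 8, 6 and 6 counts in untreated libraries 1, 2 and 4 despite their greater depth. ERVFRD-1, which encodes syncytin-2, had 33, 25 and 19 counts in MGO against 3, 3 and 1 in untreated libraries, too few for a fold. ERVW-1 and ERVFRD-1 averaged 0.15 and 0.050 CPM in untreated libraries, so both passed the filter on low counts through the MGO libraries. Rows that low in untreated libraries could enter the test only as rises, so the direction of both was set by the filter. When all 6 libraries had to reach 1 CPM, 3 rows were tested, of which 2 rose and 1 fell. ERVK3-1 rose (4.69 ± 0.265 CPM in MGO, 2.61 ± 0.285 CPM in untreated) and ERVMER34-1 fell (2.52 ± 0.229 CPM in MGO, 8.34 ± 0.521 CPM in untreated). A handful of annotated rows does not measure repeats as a class. Whether the pathway silences these rows in these cells was not tested.

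**Figure D4:**
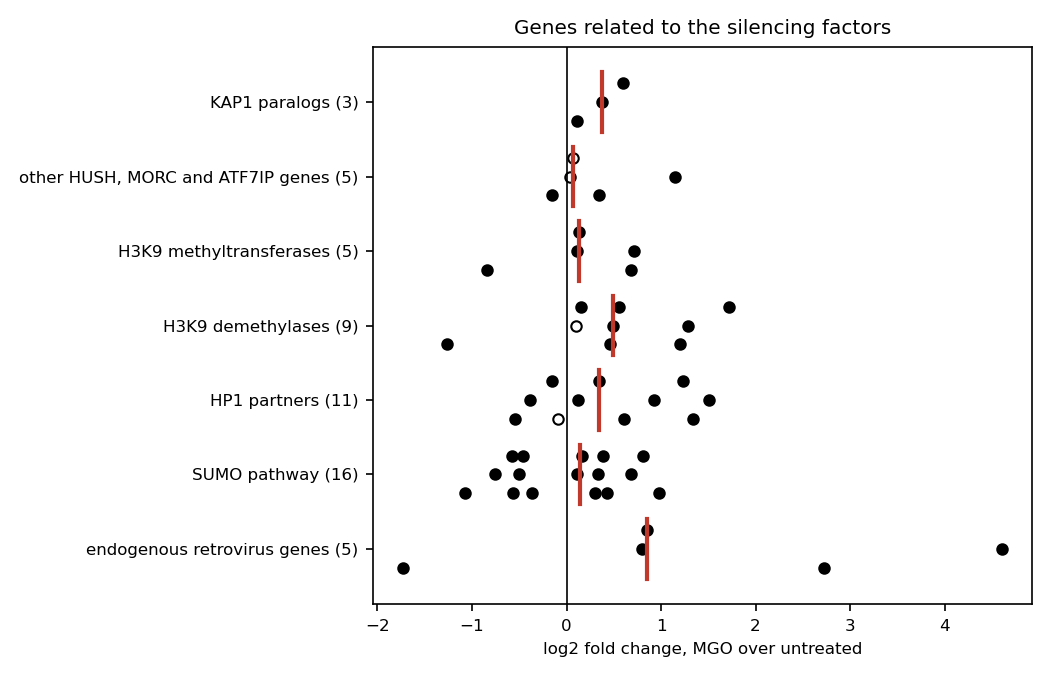
Log2 fold change in MGO over untreated cells (horizontal axis) of each tested gene in 7 related lists, with filled points for genes called at an adjusted p under 0.05, open points for the others and a red bar at the list's median. The list medians lie between 0.07 and 0.85, and most lists hold genes on both sides of 0; the point at the far right is ERVFRD-1, whose fitted value rests on few counts.

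**Figure D5:**
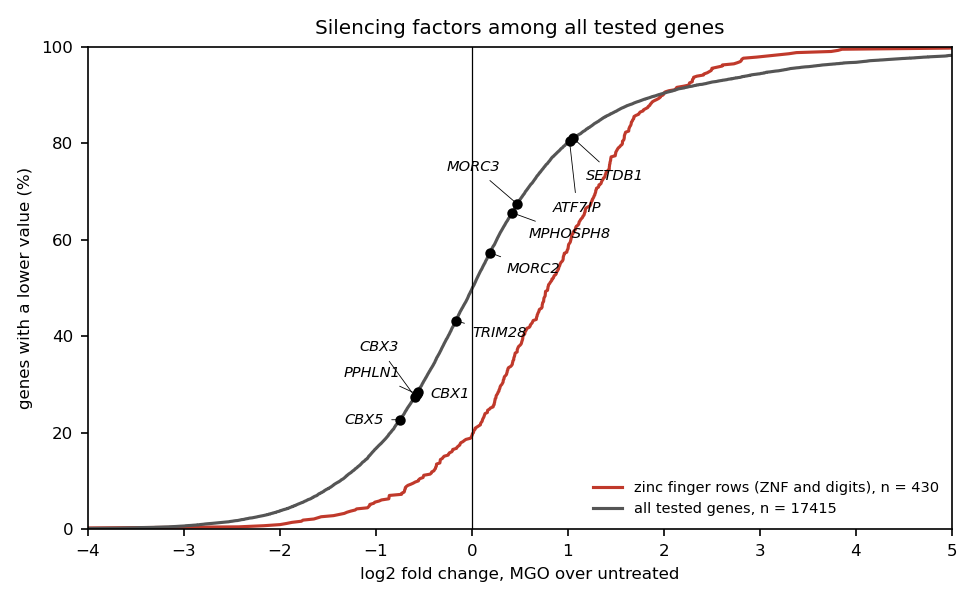
Share of genes with a lower log2 fold change (vertical axis, percent) against the log2 fold change in MGO over untreated cells (horizontal axis), for the 430 tested zinc finger rows in red and for all 17415 tested genes in grey, with the 10 silencing factors as black points on the grey curve. SETDB1 and ATF7IP lie above about 80% of tested genes and CBX5 above 22.7%, and the zinc finger curve lies to the right of that of all genes over most of the range.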

How the data were processed

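Poly(A) RNA from GLO1-knockout HEK293T cells was sequenced as paired reads of 100 bases, per the labels' protocols, after library preparation from 500 ng of RNA with 8 cycles of PCR. The authors deposited 1 table for each library with unnormalized counts of reads by gene symbol. Per the submitters' processing notes, Trim Galore, STAR 2.4, Picard, HTSeq 0.9.1 and genome build hg38 were used; the sources used here give neither their settings nor the annotation or use of strand. Reads copied by PCR were not collapsed by identifiers as far as stated, so counts are not numbers of molecules.

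The 29 rows that carry a date in place of a symbol (0.178% to 0.242% of counts) and the 4 rows with repeated names stayed in the fit and are not named. Libraries of a group differed by more than sampling noise (chi-square per degree of freedom of 1.88 to 14.7 over genes reaching 20 counts summed over both), so none was taken for a library deposited in duplicate, which does not show that they came from separate cultures.

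MGO and untreated libraries were compared with edgeR 4.0.16 in R 4.3.3 (filterByExpr, TMM, robust glmQLFit, two-sided glmQLFTest, no covariate, 4 residual degrees of freedom, Benjamini-Hochberg over 17415 genes, threshold 0.05). The SE is the size of the log2 fold change divided by the square root of F. Partner ratios used counts + 0.5 and exact permutation tests over libraries (SciPy 1.17.1). Exon lengths, coordinates and neighbours (overlap, or starts within 2 kb) came from GENCODE 29, matched by symbol. The fit was also run on simulated data with far fewer changed genes than were called here, and nothing is drawn from that run.

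The members, lists, pairs and motifs were chosen with earlier results of these data known. Named genes were all members, up to 4 of each related list by p, neighbours, and the 5 genes most like TRIM28. ATF7IP2, MORC1, SUV39H1 and members of the marker lists were named beside them. Of 28 annotated neighbours 9 were tested with a unique name. Alternatives were other scalings (RLE, upper quartile, library size), filters, each library left out, both libraries numbered 1 left out, the library number as a block, limma 3.58.1 voom, the DESeq2 1.42.0 Wald test, edgeR without robust shrinkage, a test against a fold of 1.5, and thinned untreated libraries. The result of the embryonic kidney marker list as a whole is not reported here.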

Additional observations from a re-analysis of the deposited data

How the results depend on the processing

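Over 18 alternatives for the fit, each of the 10 members kept its direction, and 171 of 180 values kept their side of the threshold. The other 9 were MORC2 with library size as the only scaling and with no filter on low counts, given in the report, and the 7 genes that did not pass a test against a fold of 1.5, which left 3 members (SETDB1, ATF7IP and CBX5) and 8305 genes (47.7%) called, in place of 10 and 14464. Random removal of untreated counts down to the average depth of MGO libraries left 5 members higher and 5 lower, with log2 fold changes of 1.10 for SETDB1 and -0.71 for CBX5. Library size as the only scaling shifted the median of all genes to -0.10. Dropping the filter gave a median of 0.20, but over 35722 genes in place of 17415, so it does not describe the same genes. The members' median was -0.09 under the first setting and -0.17 under the second. Among related genes, EHMT2 turned to -0.00038 and -0.077 and MORC4 to -0.033 and -0.11 under these 2 settings, and TRIM24 to -0.073 without the filter. The CBX1 to CBX3 ratio turned to -0.0059 with both libraries numbered 1 left out, and the cause was not tested; no other ratio turned.

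The HP1 shares moved with the length used. Undivided counts gave CBX1 24.2%, CBX3 37.9% and CBX5 38.0% in MGO, and 22.8%, 36.5% and 40.7% in untreated libraries. The longest annotated transcript gave 32.1%, 57.3% and 10.6% in MGO, and 31.3%, 56.9% and 11.7% in untreated libraries.

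The groups share the library numbers 1 and 4, but same-numbered libraries did not deviate together (r of 0.020 and -0.0078 over 17415 genes). With the number as a replicate block, the MGO difference rests on libraries 1 and 4 of each group, which alone share a number. In that edgeR fit 13451 genes and all 10 members were called, TRIM28 with an adjusted p of 0.0497. HNRNPA2B1 was not called there (log2 fold change -0.16, adjusted p = 0.0511). Depth limits MPHOSPH8 most, at 413 counts in MGO library 1.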
